A study of Mus musculus with 13 samples.

Results

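The 9 B cell genes Ms4a1, Cd79a, Cd79b, Cd22, Pax5, Blk, Cr2, Ighm and Igkc were followed on 13 Affymetrix arrays of fat from the epididymal depot, a visceral fat pad, of male mice. They were chosen by name. Each gene was read by a probe set, a group of short probes summarised to 1 log2 expression value per array, whose platform symbol was that gene alone. Where a gene had several such probe sets, the one with the highest mean stood for it. All 9 were measured, of 18820 genes in all.

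The study crossed genotype with diet. Wild-type mice were C57Bl/6, and knockout mice were B6.129P2-P2rx7tm1Gab/J (P2X7-/-), a germline knockout of the ATP-gated channel P2X7 that had 7 generations of backcrossing to B6. Mice of both genotypes went on their diet at 6 weeks of age, stayed on it for 12 weeks and were 18 weeks old at death. Low-fat chow gave 13% of energy as fat and the high-fat diet 60%. There were 4 arrays of knockout mice fed the high-fat diet and 3 of each other group. The labels do not tie arrays to single animals. The p-values therefore measure only the spread between these samples, which may be technical.

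B cells recognise antigen through a receptor made of an antibody on the cell surface, with heavy chain (mu, encoded by Ighm, on naive cells) and light chain (kappa, encoded by Igkc, on most mouse B cells), joined to the signalling pair Cd79a and Cd79b. Cd22 and the complement receptor Cr2 set the threshold of that signal, Blk is a kinase that transmits it, and Pax5 is the transcription factor that holds cells in the B cell programme. Once activated, a B cell can become a plasma cell, which secretes antibody, loses Pax5 and Ms4a1 (CD20) and keeps high levels of antibody chain RNA. Visceral fat holds B cells in its stroma and in lymphoid clusters.

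Log2 values ran from 1.70 to 13.86, the array medians lay between 5.72 and 5.88, and r across genes between arrays of the same group was 0.993 to 0.998. The adipocyte list, 8 genes such as Adipoq and Plin1, had mean log2 values of 11.3 to 12.2 on the arrays, so the labelled tissue was present on each. P2rx7 itself checked the labels weakly: its group means on chow were 8.21 (wild type) and 8.06 (knockout), and on high-fat diet 9.53 and 9.06. It passed no genotype test, with a limma adjusted p of 0.741 for its change of -0.16 ± 0.13 on chow and of 0.464 for that of -0.47 ± 0.12 under the high-fat diet. The sources used here do not give which part of the gene its probe set reads, so it may lie outside the deleted part. As a floor for signal, the 95th percentile of the mean values of 1157 olfactory and vomeronasal receptor genes, which fat is not known to express, was 4.31. Of the 9 members, 8 had a group mean above it. Cr2 did not, with a highest group mean of 3.78.

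One array stood apart before any comparison was made. Replicate 2 of the knockout mice on high-fat diet had the highest value of all 13 arrays for 9 of the 9 members, while 4.02% of all genes were highest there. The main results for the members and lists are therefore given with and without it where it moves them. Its labels differ from those of its group in the replicate number only. In bulk tissue, fewer B cells and less RNA per B cell cannot be told apart.

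For 4 of the 9 genes (Cr2, Pax5, Cd79a and Cd22) RefSeq promoter sequence was available, in GRCm38.p6. The 250 bases before the start that the promoter table gives for Cd22 and for Cd79a are shown because Cd22 passed the test for diet and Cd79a did not. The Cd22 window lies at chr7:30879029-30879278 on the minus strand and that of Cd79a at chr7:24897247-24897496 on the plus strand, each read 5′ to 3′ on the gene's strand. The Cd79a window adjoins the gene in the RefSeq gene table, whereas the Cd22 window lies within the span listed there for Cd22, so its start is that of 1 transcript and not the gene's outermost one. Capitals mark a match to the palindromic core bound by early B cell factor, which reads the same on both strands and leaves its middle pair of bases free.
Cd22: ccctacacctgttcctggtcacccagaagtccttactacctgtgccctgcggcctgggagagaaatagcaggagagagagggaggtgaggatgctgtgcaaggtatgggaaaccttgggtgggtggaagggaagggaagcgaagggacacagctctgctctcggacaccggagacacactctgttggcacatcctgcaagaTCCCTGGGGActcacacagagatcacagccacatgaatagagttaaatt
Cd79a: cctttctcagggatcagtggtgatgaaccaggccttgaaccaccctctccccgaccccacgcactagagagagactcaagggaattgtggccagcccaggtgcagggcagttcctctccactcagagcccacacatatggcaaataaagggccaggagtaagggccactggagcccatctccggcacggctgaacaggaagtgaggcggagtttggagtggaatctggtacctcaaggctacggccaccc
The Cd22 window held 1 exact copy, at bases -49 to -40 from the start, and the windows of Cd79a, Cr2 and Pax5 held no exact copy. Of 32851 promoters of 27025 genes, 0.779% held it in a window of the same length. The octamer ATGCAAAT, a site of Oct factors in antibody promoters, was searched on both strands and found in 0 of the 4 members and in 1.6% of all promoters. Only exact matches were searched for. A window without a match may therefore still hold a site that departs from the pattern, and the search cannot tell Cd79a from Cd22 in binding. A match describes these letters and no more.

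The probe sets that stood for Igkc and Ighm separated the diets in knockout mice. Igkc, the kappa light chain constant region, had log2 values of 5.61, 4.95 and 4.86 in knockout mice on chow, and of 7.28, 8.73, 7.75 and 6.89 on high-fat diet. In wild-type mice it was 6.93, 4.94 and 6.64 on chow and 5.28, 6.28 and 6.44 on high-fat diet. Every knockout array on high-fat diet was above every knockout array on chow, and the wild-type diets overlapped.

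The rise of Igkc in knockout mice was 2.52 ± 0.49 (log2, SE), or 5.75-fold, with a limma adjusted p of 0.00132. Without replicate 2 it was 2.17 ± 0.46, adjusted p = 0.00363, and the call held in 13 of 13 fits that left out 1 array each (2.17 to 2.78). In wild-type mice the change was -0.17 ± 0.53, adjusted p = 0.843. The difference between these changes, the interaction, was 2.69 ± 0.72 with an unadjusted p of 0.00248, and it missed the threshold over all genes (limma adjusted p = 0.320, and 0.338 without replicate 2).

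Ighm, the mu heavy chain, had log2 values of 6.17, 5.48 and 5.47 in knockout mice on chow and of 6.56, 8.72, 6.57 and 6.56 on high-fat diet. In wild-type mice it was 6.20, 5.46 and 5.44 on chow and 5.79, 6.07 and 6.43 on high-fat diet. The knockout diets did not overlap, although 3 of the 4 high-fat arrays sat close together and replicate 2 far above them. The rise was 1.39 ± 0.45, or 2.63-fold, with a limma adjusted p of 0.0280, and 0.85 ± 0.23 without replicate 2 (adjusted p = 0.0151). It was lost in 2 of 13 fits that left out 1 array, those without replicate 2 or replicate 3 of the knockout mice on chow. It was also lost when only the groups compared were fitted (adjusted p = 0.0514). In wild-type mice it stood at 0.40 ± 0.48, adjusted p = 0.577.

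A second Ighm probe set with a single symbol gave log2 values of 5.45, 5.24 and 5.34 in knockout mice on chow and of 5.46, 6.85, 6.15 and 5.32 on high-fat diet, so those diets overlapped. With the mean of both probe sets the knockout change of Ighm was 1.00, adjusted p = 0.0609. Antibody genes are a family with near-identical segments, and the sources used here do not give which part of the chain each probe set reads, so the Ighm and Igkc values are uncertain as to the exact transcript.

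Across all antibody probe sets, chosen after their values were seen and counting those that name several chains, 37 were measured. In knockout mice the mean on high-fat diet was above that on chow in 36 of them (97.3%), against 41.7% of all probe sets, and in 30 (81.1%) without replicate 2, against 42.2%. In wild-type mice it was above in 13 (35.1%), against 46.6% of all. The median change was 1.19 in knockout mice, 0.63 without replicate 2 and -0.08 in wild-type mice. In knockout mice 15 of the 37 (40.5%) had every high-fat array above every chow array, against 14.8% of all. In wild-type mice 1 (2.7%) did, against 17.3% of all. Every high-fat array was below every chow array for 2 of the 37 (5.41%) in wild-type mice and for 0 in knockout mice. The share over all probe sets was not computed for this direction, and over the genes tested it was 22.5% and 25.6%. Probe sets share sequence, so these counts are descriptions.

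**Figure D1:**
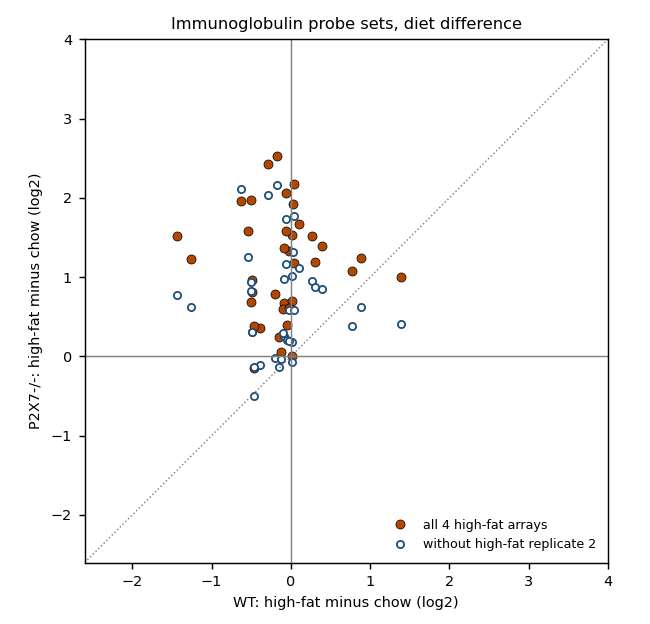
Change with diet (high-fat minus chow, log2) of the 37 antibody probe sets, wild-type mice on the x axis and P2X7 knockout mice on the y axis, with all 4 knockout high-fat arrays (filled) and without replicate 2 (open); the dotted line marks equal changes. The median change was -0.08 in wild-type mice, 1.19 in knockout mice and 0.63 in knockout mice without that array.

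The signalling chains of the receptor did not pass the test for diet in either genotype. Cd79a had log2 values of 5.72, 6.26 and 6.54 in knockout mice on chow and 4.98, 7.82, 5.89 and 5.72 on high-fat diet. In wild-type mice it was 6.53, 5.97 and 6.24 on chow and 5.58, 5.78 and 4.86 on high-fat diet. All 3 wild-type high-fat arrays lay below all 3 chow arrays, and the knockout diets overlapped, with replicate 2 highest and replicate 1 lowest of the 4 high-fat arrays. The wild-type change of -0.84 ± 0.53 had a limma adjusted p of 0.253. Without knockout replicate 2, whose group shares the estimate of spread, the same change had an SE of 0.29 and an adjusted p of 0.0411. The knockout change was -0.07 ± 0.49, adjusted p = 0.933, and -0.64 without replicate 2, adjusted p = 0.121.

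Cd79b, the partner of Cd79a, had log2 values of 7.60, 7.16 and 7.61 in wild-type mice on chow and 7.04, 7.39 and 6.86 on high-fat diet. In knockout mice it was 6.51, 7.57 and 7.54 on chow and 7.24, 8.60, 7.23 and 7.64 on high-fat diet. The diets overlapped in both genotypes. In limma the change was -0.36 ± 0.35 in wild-type mice, adjusted p = 0.468, and 0.47 ± 0.32 in knockout mice (adjusted p = 0.295), and 0.16 in knockout mice without replicate 2.

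Of the surface receptors, Cd22 was the one that rose with diet in both genotypes. This inhibitory receptor binds sialic acid and dampens B cell receptor signals. Its log2 values were 6.14, 5.68 and 6.05 in wild-type mice on chow and 7.46, 7.28 and 7.59 on high-fat diet. In knockout mice they were 5.53, 6.25 and 6.11 on chow and 7.02, 7.79, 7.13 and 7.19 on high-fat diet. Neither genotype's diets overlapped. The rise was 1.48 ± 0.21, or 2.80-fold, in wild-type mice, with a limma adjusted p of 0.000103, and 1.32 ± 0.20, or 2.49-fold, in knockout mice (adjusted p = 0.000192). Without replicate 2 the knockout rise was 1.15 ± 0.17, adjusted p = 0.000351. It held in 13 of 13 fits that left out 1 array, in each genotype. The interaction was -0.17 ± 0.29, adjusted p = 0.888.

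Macrophage genes moved in the same direction as Cd22. Of 9 macrophage markers 8 rose and 1 fell in each genotype, with median changes of 1.23 in wild-type and 1.22 in knockout mice against -0.03 and -0.06 over all genes. Over all genes 17.7% rose and 18.1% fell in wild-type mice, and 14.5% rose and 19.7% fell in knockout mice. The mean of the list lay between 9.02 and 9.42 on wild-type chow arrays and between 10.34 and 10.73 on wild-type high-fat arrays. In knockout mice it lay between 9.26 and 9.49 on chow and between 10.37 and 10.59 on high-fat diet. Macrophages were not the only such list. Of 7 dendritic cell markers 5 rose and 2 fell in wild-type mice, and 4 rose and 1 fell in knockout mice. Their median changes were 0.77 and 0.46. The part of macrophages or of dendritic cells in the rise of Cd22 was not tested.

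Ms4a1, which encodes CD20, had log2 values of 6.56, 5.99 and 6.05 in wild-type mice on chow and 5.01, 5.49 and 5.15 on high-fat diet. In knockout mice it was 5.17, 6.63 and 6.38 on chow and 5.30, 7.85, 5.55 and 6.30 on high-fat diet. The wild-type diets did not overlap, and the knockout diets did. The wild-type change was -0.98 ± 0.53 (limma adjusted p = 0.180), and without knockout replicate 2 its SE was 0.35 and its adjusted p 0.0443. In knockout mice the change was 0.19 ± 0.50 (adjusted p = 0.803), and -0.34 without replicate 2 (adjusted p = 0.509).

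Cr2, the complement receptor 2 of B cells and follicular dendritic cells, stayed at or under the floor on 12 of the 13 arrays. Its log2 values were 3.26, 3.42 and 3.43 in wild-type mice on chow and 3.41, 3.43 and 3.18 on high-fat diet. In knockout mice they were 3.33, 3.48 and 3.43 on chow and 3.43, 4.63, 3.43 and 3.63 on high-fat diet. Only replicate 2 was above the floor. No change is read from the other arrays.

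Neither the kinase nor the transcription factor passed the test for diet. Pax5 had log2 values of 5.03, 4.97 and 5.24 in wild-type mice on chow and 4.83, 4.87 and 4.40 on high-fat diet, and in knockout mice 4.97, 5.17 and 5.39 on chow and 4.65, 5.84, 4.69 and 5.01 on high-fat diet. The wild-type diets did not overlap, with the lower values on high-fat diet, and the knockout diets did. The change was -0.38 ± 0.25 in wild-type mice (adjusted p from limma 0.279, and 0.0727 without knockout replicate 2), and -0.13 ± 0.24 in knockout mice (adjusted p = 0.711). Without replicate 2 it was -0.40 in knockout mice, adjusted p = 0.0708.

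Blk, a Src-family kinase of B cells, had log2 values of 5.25, 4.95 and 5.25 in wild-type mice on chow and 4.69, 4.96 and 4.69 on high-fat diet. In knockout mice it was 4.84, 5.30 and 5.19 on chow and 4.86, 5.30, 4.91 and 5.08 on high-fat diet. The wild-type diets overlapped by 1 array each, and the knockout diets overlapped. The wild-type change was -0.37 ± 0.15, limma adjusted p = 0.0628. It was past the threshold in 4 of 13 fits that left out 1 array, without replicate 2 of either wild-type group, replicate 1 of the knockout mice on chow, or replicate 2 of the knockout mice on high-fat diet (adjusted p = 0.0484). In knockout mice it was -0.07 ± 0.14.

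**Figure D2:**
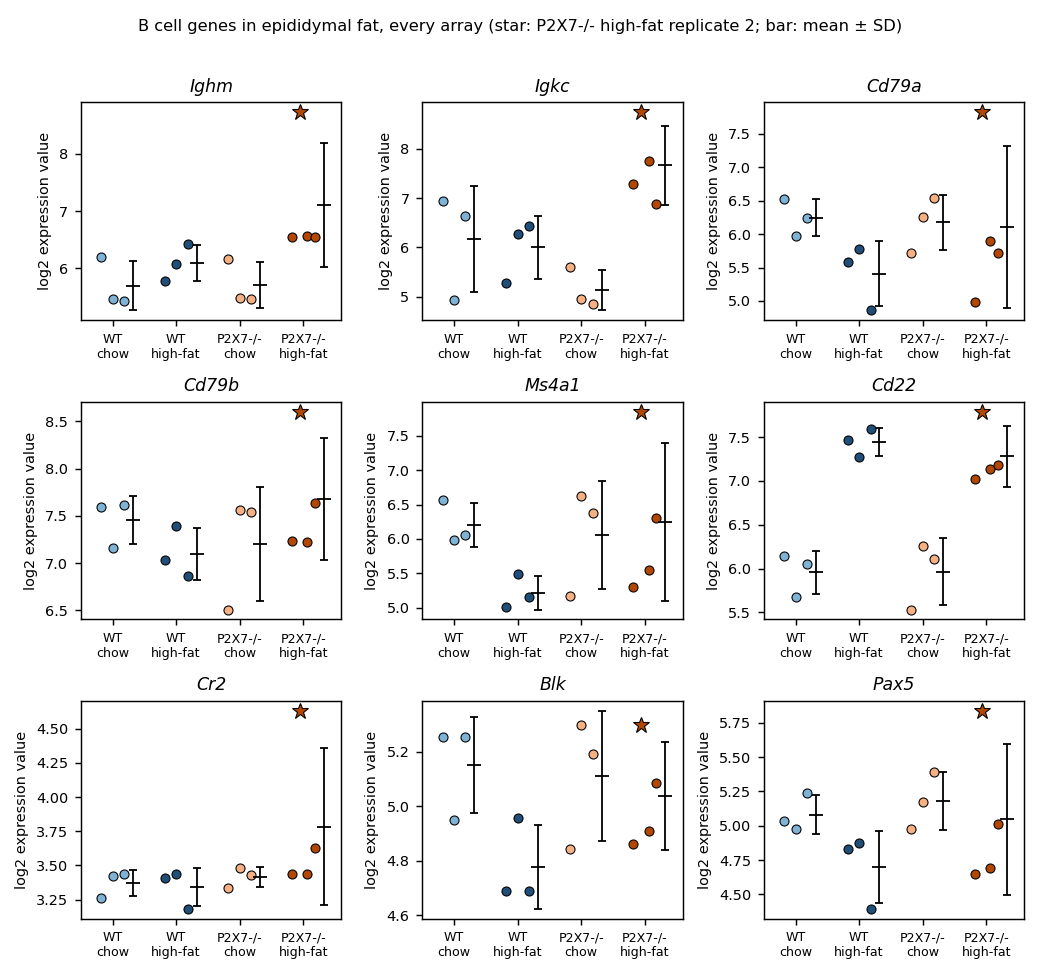
Log2 expression value of each of the 9 B cell genes (y axes, each with its own range) on the 13 arrays by group (x axes); points are arrays, bars give mean ± SD, and the star is replicate 2 of the P2X7 knockout mice fed the high-fat diet. The star is the highest point for all 9 genes, level with a knockout chow array to the second decimal for Blk (5.30).

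By count, 1 of the 9 members rose with diet in wild-type mice and 0 fell, where 17.7% of all genes rose and 18.1% fell. In knockout mice 3 rose and 0 fell, where 14.5% of all genes rose and 19.7% fell. Averaged over genotypes 3 rose and 0 fell, against 20.3% and 26.3% of all genes. These were Cd22 (1.40 ± 0.15, limma adjusted p = 3.29e-06), Igkc (1.18 ± 0.36, adjusted p = 0.0159) and Ighm (0.89 ± 0.33, adjusted p = 0.0386). The Ighm call in the average held in 7 of 13 fits that left out 1 array. The median member changed by -0.36 in wild-type mice and 0.37 in knockout mice, against -0.03 and -0.06 over all genes. Without replicate 2 the median member of the knockout mice changed by 0.085.

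Without knockout replicate 2, 1 member rose and 3 fell in wild-type mice, where 17.2% and 17.5% of all genes did. In knockout mice 3 rose and 0 fell (13.1% and 17% of all genes). Averaged over genotypes 3 rose and 4 fell (19.6% and 24.8% of all genes). The falls were those of Cd79a (-0.74, limma adjusted p = 0.0108), Ms4a1 (-0.66, adjusted p = 0.0443), Pax5 (-0.39, adjusted p = 0.0108) and Blk (-0.27, adjusted p = 0.0381). In that average the falls of Cd79a, Ms4a1 and Pax5 each passed in 1 of 13 fits that left out 1 array, and that of Blk in 4. The array left out here was picked because these members were highest on it, so these calls are no independent support. With all arrays, the wild-type diets did not overlap for Ms4a1, Cd79a and Pax5, which were lower on high-fat diet as were 22.5% of all genes, and for Cd22, higher as were 20.8%. The knockout diets did not overlap for Cd22, Ighm and Igkc, higher as were 17.5% of all genes, and for 0 members in the lower direction, as were 25.6%.

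**Figure D3:**
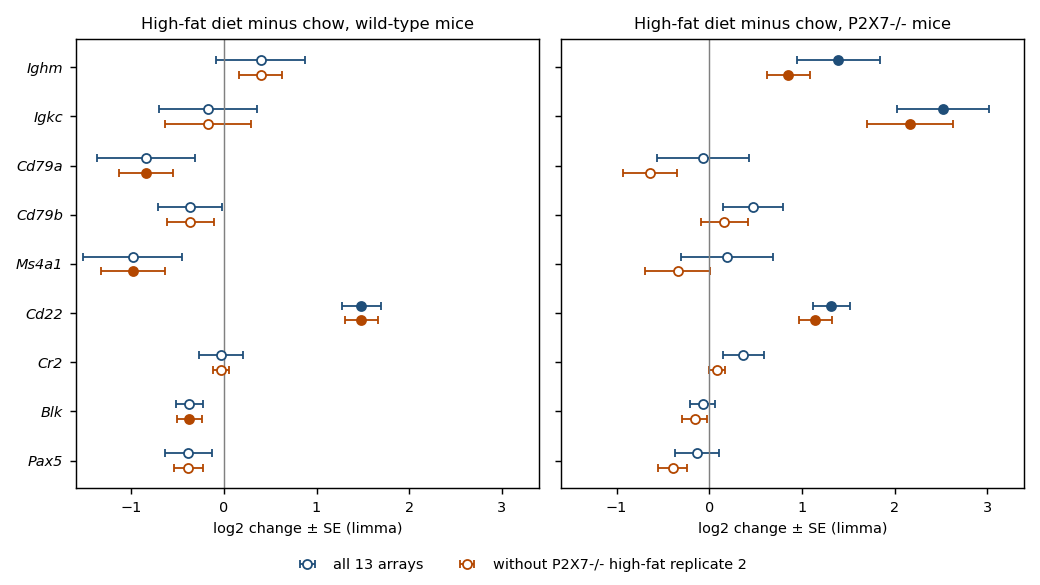
Diet change (high-fat minus chow, log2, ± SE from limma, x axes) of each B cell gene in wild-type (left) and P2X7 knockout mice (right), with all 13 arrays (blue) and without knockout high-fat replicate 2 (orange); filled points passed an adjusted p of 0.05. With all arrays the filled points are Cd22 in both genotypes and Ighm and Igkc in knockout mice, and without that array also Cd79a, Ms4a1 and Blk in wild-type mice.

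No member passed the test for genotype. On chow 0 of 9 passed in limma, and 0 had an unadjusted p under 0.05, as 1810 of all 18820 genes did (25 genes, 0.133% of all, passed). There, 0 members had groups that did not overlap, against 14.9% of all genes. The largest member change on chow was that of Igkc, at -1.03 ± 0.53 (limma adjusted p = 0.560), lower in knockout mice. On high-fat diet 0 of 9 passed, 2 had an unadjusted p under 0.05, as 1394 of all 18820 genes did, and 0.0425% of all genes passed. The 2 members were Igkc, at 1.66 ± 0.49 (3.16-fold, adjusted p = 0.577), and Ighm, at 1.01 ± 0.45 (adjusted p = 0.661). Without replicate 2 the changes were 1.31 ± 0.46 for Igkc (limma adjusted p = 0.562) and 0.47 ± 0.23 for Ighm (adjusted p = 0.658). Both had every knockout array above every wild-type array on high-fat diet, as 2.41% of all genes did (6.68% in either direction). Of the 9 changes on high-fat diet 8 were positive, with a median of 0.58, and 0.17 without replicate 2. In the interaction 0 of 9 passed, and 0% of all genes did. Of the members, 1 had an unadjusted p under 0.05, namely Igkc, and 1829 of all genes did.

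Over all 13 arrays the members varied together within groups, but for some of them this rested on knockout replicate 2. With group means subtracted, r with Cd79a over 13 arrays was 0.93 for Pax5, 0.89 for Cr2, 0.88 for Ms4a1, 0.86 for Cd79b, 0.74 for Blk and 0.72 for Cd22, and lower for Ighm (0.69) and Igkc (0.47). Without knockout replicate 2, over 12 arrays, it was 0.74 for Pax5, 0.64 for Ms4a1, 0.70 for Cd79b and 0.68 for Blk, but 0.47 for Cr2, 0.41 for Cd22, -0.31 for Ighm and 0.02 for Igkc. The arrays share the tissue, the platform and the normalisation, and these are descriptions. Knockout replicate 1 on chow was the lowest of its group for 7 members, with Ms4a1 at -1.34 and Cd79b at -1.05 against the mean of the other 2 arrays, and the highest for Ighm and Igkc, by 0.69 and 0.71.

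The excess of replicate 2 over the mean of the other 3 knockout arrays on high-fat diet was 2.29 for Cd79a, 2.16 for Ighm, 2.13 for Ms4a1, 1.43 for Igkc, 1.24 for Cd79b, 1.13 for Cr2, 1.05 for Pax5, 0.68 for Cd22 and 0.35 for Blk, on the log2 scale. Over all genes the middle 90% lay between -0.24 and 0.24, and 40 genes (0.213%) were more than 1 above; 7 members were among them, counting Cr2. The excess of Cr2 has no exact size, since the other 3 arrays were under the floor. Most other B cell genes and most T cell markers were high on that array too. Of 20 other B cell genes, 17 were above the 95th percentile of all genes, and of 9 T cell markers 8 were, with excesses of 1.40 for Cd3g, 1.23 for Cd3e and 1.15 for Cd4. Of 11 plasma cell genes 4 were, with a list median of 0.16. Igha stood 2.47 above, Mzb1 1.75 and Jchain 1.54, while Xbp1 (-0.045), Tnfrsf17 (-0.12) and Fkbp11 (-0.14) were below. Of 10 survival and homing signals 3 were, with a median of 0.059. They ran from Cxcl12 at -0.27 to Cxcl13, a chemokine that draws B cells into follicles, at 2.70. Of 6 NK cell markers 2 were above that percentile, with a median of 0.0084, and of 5 B cell precursor genes 0 were. Of 7 dendritic cell markers 3 were, and of 6 liver markers 3. Of 5 lymph node stroma markers 2 were, with a median of 0.19, namely Cxcl13 and Glycam1 (1.09, with the other 3 arrays under the floor). Of 18 B cell receptor signalling genes 8 were, with a median of 0.22. Mmp9, which is in none of the lists, stood 2.89 above, with rank 2 among all genes. Of 9 macrophage markers 1 was above, and of 8 adipocyte markers 0 were, with a median of -0.13. The source of the excess on this array was not tested.

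**Figure D4:**
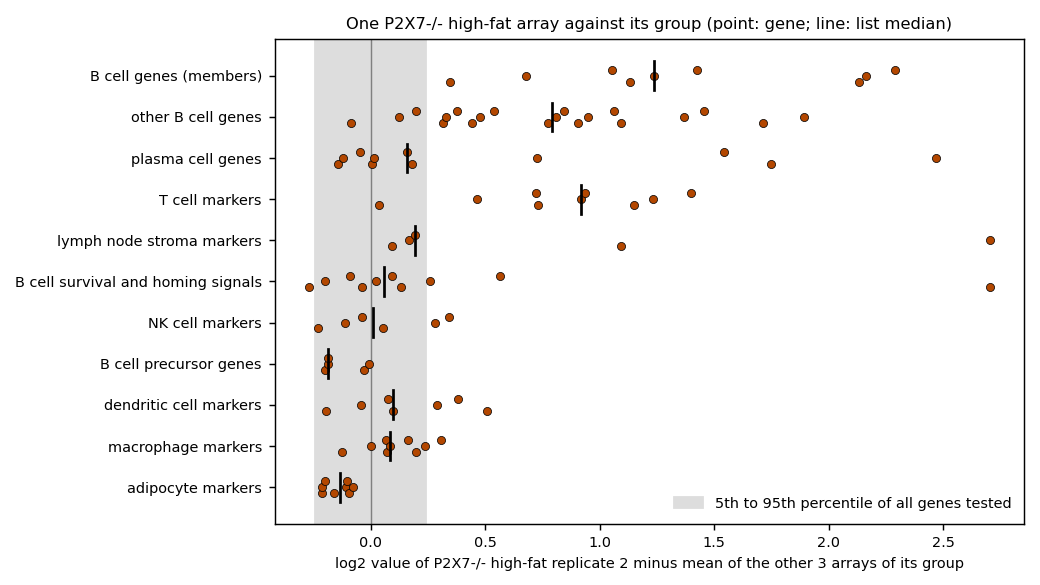
Log2 value of replicate 2 minus the mean of the other 3 arrays of knockout mice on high-fat diet (x axis), for the members and 10 other lists; points are genes, black lines list medians, and the grey band the 5th to 95th percentile of all genes (-0.24 to 0.24). The members run from 0.35 to 2.29, all above the band, and the adipocyte markers have a median of -0.13.

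Other B cell genes moved in both directions with diet. Of 20 measured, 3 rose and 3 fell in wild-type mice (median -0.15) and 4 rose and 1 fell in knockout mice (median 0.14). Over all genes 17.7% rose and 18.1% fell in wild-type mice, and 14.5% rose and 19.7% fell in knockout mice. The counts of this list are small beside those shares and are not read as a trait of B cell genes. Without replicate 2 the list's counts were 4 and 4, and 3 and 3, and the knockout median was -0.059. Cd180, a Toll-like receptor partner, rose by 2.47 ± 0.20 in wild-type and by 2.49 in knockout mice, and Cd37 by 1.53 and 1.40; macrophages are also known to express Cd180. Ebf1, a factor of early B cells that is also high in adipocytes and their precursors, fell by 1.03 and 0.81. B cell receptor signalling genes rose in 15 of 18 and fell in 0, in both genotypes (median 1.48 and 1.05). Without replicate 2, 14 rose in knockout mice, with a median of 0.97. They were led in wild-type mice by Cd72 (4.20), Blnk (2.94) and Pik3ap1 (2.47), genes that macrophages are also known to use. Il7r, which marks B cell precursors but also other lymphocytes and myeloid cells, rose by 4.22 and 3.31 and was the only one of 5 precursor genes to pass.

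Among genes of plasma cells, 3 rose and 1 fell of 11 in wild-type mice, and 4 rose and 1 fell in knockout mice (median 0.22 and 0.61). Without replicate 2 the knockout counts were the same and the median was 0.25. With all arrays, 17.7% of all genes rose and 18.1% fell in wild-type mice, and 14.5% rose and 19.7% fell in knockout mice. Prdm1, the plasma cell regulator, rose by 1.18 ± 0.14 in wild-type mice and by 0.89 in knockout mice, and Sdc1 by 1.47 and 1.35. Mean Xbp1 was lower on high-fat diet, at 11.04 against 11.50 in wild-type mice and 11.03 against 11.52 in knockout mice. Of the 11 changes, 4 were negative in wild-type mice and 2 in knockout mice. Which cells these changes came from was not tested. Jchain, which joins secreted antibodies, passed in knockout mice. Its log2 values were 6.94, 5.72 and 6.52 in knockout mice on chow and 7.44, 9.50, 8.15 and 8.29 on high-fat diet, and in wild-type mice 7.27, 6.21 and 6.54 on chow and 6.58, 6.30 and 6.86 on high-fat diet. The knockout diets did not overlap and the wild-type diets did. The knockout change was 1.95 ± 0.41 (limma adjusted p = 0.00232, and 1.57 with adjusted p = 0.00351 without replicate 2), the wild-type change -0.09 ± 0.44 (adjusted p = 0.904), and the interaction 2.04 ± 0.60 (adjusted p = 0.355).

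Of 10 survival and homing signals for B cells, 0 rose and 1 fell in wild-type mice, and 3 rose and 1 fell in knockout mice. Over all genes 17.7% rose and 18.1% fell in wild-type mice, and 14.5% rose and 19.7% fell in knockout mice. Tnfsf13b, the survival factor BAFF, rose by 0.50 in knockout mice (limma adjusted p = 0.00238), and Il7 fell by 0.45 in wild-type and 0.46 in knockout mice. Without replicate 2, 2 rose and 1 fell in knockout mice. The genes outside the members that followed the 9 genes most closely, by r with their mean after subtracting group means, over 13 arrays, were Fcmr (0.98), Pou2af1 (0.94), Fcer2a (0.92), Clcn1, Cxcr5 and Tctex1d4 (each 0.91), and Spib and Ccr6 (each 0.90). Without replicate 2 the r of Fcmr was 0.90 and that of Fcer2a 0.52.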

How the data were processed

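Arrays were hybridised with labelled cDNA made from 100 ng of RNA per sample. The deposited values are log2 expression values that the authors normalised with RMA, per the submitters' processing notes (the sources used here give no version). They were scaled no further. The platform annotation pairs 21218 of the 35556 probe sets with a single symbol, 1881 with several and 12457 with none. Genes were tested on the first kind only (18820 genes, of which 18790 matched RefSeq's GRCm38.p6 gene list by Entrez ID, with 0 renamed).

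With limma 3.58.1 (R 4.3.3, with version 1.17.8 of data.table), group means of the 4 groups were estimated in 1 model of the 13 arrays, with an intensity trend in the variance. Adjusted p-values are Benjamini-Hochberg over the 18820 genes, with a threshold of 0.05, and ± is the SE. The labels name no pairing of samples by replicate number, and no block was used. The 15 gene lists had 149 entries, 19 of them not measured. The members and lists were chosen with earlier results of these data known. The text names the members, P2rx7, up to 4 passing genes per other list and comparison (2 as values where none passed) and the 8 genes most like the members. Jchain, Igha, Mzb1, Cd3g, Cd3e, Cd4, Cxcl13, Cxcl12, Tnfrsf17, Fkbp11, Xbp1, Glycam1 and Mmp9 and the antibody probe sets were chosen after their values were seen, as was leaving out 1 array for the other lists. The script was tested on simulated data. Alternatives varied the trend, the scaling, a filter for dim genes, the choice of probe set, weights for arrays, the groups fitted and a replicate block, and omitted single arrays. The number of arrays limits the precision. Python 3.11.15 with numpy 2.4.6 and matplotlib 3.10.9 drew the figures.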

Additional observations from a re-analysis of the deposited data

Results flagged for a closer look

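In the knockout mice on high-fat diet, replicate 2 lay far above the other 3 arrays for 2 of the 9 members and for several of the other genes looked at one by one. The gap from that array to the next, divided by the range of the group, was above Dixon's 95% critical value for groups of 4 samples, for Ighm (0.992), Fcer2a (0.961), Cd3e (0.941), Igha (0.891), Cd4 (0.888), Fcrla (0.864), Fcmr (0.857), Glycam1 (0.844), a kappa chain variable gene (0.841), Cxcl13 (0.840), Cr2 (0.835) and Tctex1d4 (0.832). For Cr2, Fcer2a and Glycam1 the other 3 arrays were under the floor, so these gaps have no exact size. Slc2a4, a glucose transporter of fat and muscle, had such a gap between replicate 1, the highest of this group, and the next array (0.835). Chance alone gives about 1 such flag in 20 groups, and 8.23% of all genes had such a gap in this group, on any array and in either direction. It was at the top and on replicate 2 for 151 genes (0.802%). Igha, Cd3e, Cd4, Cxcl13 and Glycam1 were chosen after their values were seen. Fcer2a, Fcrla, Fcmr, Tctex1d4 and the kappa chain gene were chosen for likeness to the members over arrays that include replicate 2. That choice favours a flag on replicate 2, so the flags of these genes are descriptions and no test of that array.

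Probe sets with several symbols stayed out of the tests. In knockout mice the lowest high-fat array was above the highest chow array by 1.26 for the Igkc probe set 10545196, by 0.211 for the Ighm probe set 10403069 and by 0.045 for the Ighm probe set 10402864, on the log2 scale.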

How the results depend on the processing

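The number of members that passed for diet in wild-type mice was 1, and 2 with arrays centred on their medians (Blk fell as well) and 3 with only the groups compared (Cd79a and Ms4a1 fell as well). Leaving out 1 array each gave 1 to 4 there and 2 to 7 for the diet averaged over genotypes. The replicate block gave the same counts (1, 3, 0, 0, 3 and 0). The 18 same-number pairs of arrays had r of -0.30 to 0.22, with 6 over 0.1. These values do not decide whether the numbers pair the samples, and the labels name no batch. Replicate 4 of the knockout mice on high-fat diet had a block level of its own. No change that reversed had passed in either fit. With arrays centred, 2832 of all genes were higher and 4523 lower in wild-type mice, against 3327 and 3409 otherwise. Reversed changes were Cd79b averaged over genotypes with array weights (-0.0021), Cd79a in knockout mice with the block (0.059), Cr2 in wild-type mice after a second quantile normalisation (0.0082), and, for genotype on chow, Cd22 (-0.036 centred, -0.018 quantile), Cr2 (-0.0019 centred) and Ighm (-0.035 centred, -0.017 quantile, -0.053 as the mean of its probe sets). Leaving out 1 array each gave -0.119 to 0.145 for Cd79b averaged over genotypes and -0.0136 to 0.383 for the interaction of Pax5. In knockout mice it gave -0.207 to 0.0214 for Blk, -0.642 to 0.305 for Cd79a, -0.341 to 0.509 for Ms4a1 and -0.396 to 0.0008 for Pax5, and in wild-type mice -0.0855 to 0.0507 for Cr2 and -0.784 to 0.210 for Igkc. For genotype on chow it gave -0.143 to 0.0932 for Blk, -0.136 to 0.226 for Cd22, -0.256 to 0.155 for Cd79a, -0.433 to 0.0964 for Cd79b, -0.0138 to 0.0827 for Cr2, -0.222 to 0.258 for Ighm, -0.429 to 0.303 for Ms4a1 and -0.0099 to 0.200 for Pax5. The cause was not tested. Cr2 lay at the floor, so its changes are limited by signal.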
